A study of Mus musculus with 36 samples.

Results

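Bone morphogenetic proteins (BMPs), transforming growth factor beta (TGF-beta) and activins are related secreted ligands that signal through receptor kinases and Smad transcription factors. BMP signals pass mainly through Smad1, Smad5 and Smad9 and switch on the *Id* genes, whose proteins hold back the myogenic factors that drive muscle differentiation, while TGF-beta and activin signals pass through Smad2 and Smad3. Smad6 and Smad7 are inhibitory Smads made in response to these signals, and follistatin binds activins and myostatin outside the cell. The genes described here are 8 targets, ligands and antagonists of these pathways, *Id1*, *Id2*, *Id3*, *Smad6*, *Smad7*, *Inhba*, *Tgfb2* and *Fst*. They were picked by name from the 55416 genes of the count table, with earlier results of these data known. All 8 were among the 13995 genes that passed the filter on low counts and were tested.

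C2C12 is a mouse myoblast line whose cells fuse into multinucleate myotubes. The myotubes studied were transfected on day 3 of differentiation with an antisense locked nucleic acid (LNA) against the long non-coding RNA *Tug1* (Tug1 KD) or with a negative control LNA (control). A day later, on day 4, some wells were not stimulated (Rest). The others received electrical pulse stimulation (EPS) at 13 V and 66 Hz for 3 h, which makes myotubes contract, and were collected either straight away (EPS 0h) or following a recovery period of 3 h (EPS 3h). Each of the 6 groups held 6 libraries of 1 well each, and the wells came from 2 independent experiments with 3 wells per group in each. All groups received an LNA, so none shows untransfected myotubes. A single LNA was used against *Tug1* and a single LNA as control. Loss of *Tug1* and other effects of that LNA thus cannot be told apart. The p-values treat the 6 wells of a group as independent, though wells of an experiment share their cells. The spread they use holds differences between wells and any shift between the 2 experiments. With only 2 experiments, they say little on how far the differences would vary between experiments.

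Each library held between 17005079 and 24181167 counts on genes, with a median of 19439667.5. Levels are given as CPM, counts scaled to library size with TMM factors, and log2FC values, standard errors (SE) and false discovery rates (FDR, Benjamini-Hochberg over all genes tested) come from edgeR's quasi-likelihood test. A gene is called where its FDR is under 0.05. The 7 myotube markers, among them *Myh3*, *Ckm* and *Acta1*, summed to between 9573 and 14250 CPM in the 36 libraries, and none of them was called in the knockdown comparisons or in the EPS comparisons of control myotubes. The 6 markers of undifferentiated or dividing myoblasts summed to between 122.4 and 209.8 CPM. Against Rest, 1 of the 7 myotube markers was lower in Tug1 KD myotubes at each time after EPS. In control myotubes, 3 of the 6 myoblast markers were called at EPS 0h (2 higher and 1 lower) and 3 at EPS 3h (1 higher and 2 lower). In Tug1 KD myotubes these were 4 (3 higher and 1 lower) and 3 (1 higher and 2 lower), and 1 was lower after knockdown at EPS 3h. As the myotubes were measured in bulk, fewer cells of a type and less RNA per cell cannot be told apart. C2C12 cells can also form osteoblast-like cells under BMP, and of 5 osteoblast markers *Bglap* and *Ibsp* had at most 6 and 3 counts per library and *Sp7* at most 25. The other markers, *Alpl* and *Runx2*, were both called higher than at Rest 3 h after EPS, with or without the knockdown. Directly after EPS, 1 of them was called higher in control and both in Tug1 KD myotubes. The 5 summed to between 42.8 and 54.5 CPM (median 46.6) in Rest control libraries and to between 46.6 and 72.3 CPM (median 68.2) in control libraries at EPS 3h. The part of these 3 marker lists in the results was not tested.

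*Tug1* itself was lower after its knockdown at each time. At Rest it ranged from 38.6 to 58.2 CPM in control and from 23.9 to 33.2 CPM in Tug1 KD libraries, without overlap, and its log2FC was -0.83 (SE 0.171, FDR 0.000915, edgeR). At EPS 0h the difference was -0.57 (SE 0.169, FDR 0.0178, edgeR), and 3 h later it was -0.51 (SE 0.169, FDR 0.0414, edgeR). The libraries of the groups overlapped at both of these times. *Tug1* overlaps the protein-coding gene *Morc2a* on the opposite strand, which had a median of 94.3 CPM by library size, and the strand setting of the counting is not given in the sources used here.

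The stretches upstream of *Id1*, *Id2* and *Id3*, those of the 8 genes that fell most after EPS, are shown because the *Id* genes are the standard readout of BMP signalling. Each is the 250 bases before the first base of the gene's canonical transcript in GENCODE, read from GRCm39 on the coding strand, at chr2:152577915-152578164 (plus strand) for *Id1*, chr12:25147283-25147532 (minus strand) for *Id2* and chr4:135870558-135870807 (plus strand) for *Id3*. Capitals mark TGACG or its reverse complement.
Id1: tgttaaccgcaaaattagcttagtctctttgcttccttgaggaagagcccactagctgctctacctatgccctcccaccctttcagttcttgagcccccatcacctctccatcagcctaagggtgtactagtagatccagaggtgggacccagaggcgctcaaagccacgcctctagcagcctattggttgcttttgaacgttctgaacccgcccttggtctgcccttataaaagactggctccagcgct
Id2: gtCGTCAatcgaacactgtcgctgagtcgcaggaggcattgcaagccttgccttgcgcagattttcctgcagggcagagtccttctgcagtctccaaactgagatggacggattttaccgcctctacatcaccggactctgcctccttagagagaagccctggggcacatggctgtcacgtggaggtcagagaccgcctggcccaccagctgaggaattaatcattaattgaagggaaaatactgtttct
Id3: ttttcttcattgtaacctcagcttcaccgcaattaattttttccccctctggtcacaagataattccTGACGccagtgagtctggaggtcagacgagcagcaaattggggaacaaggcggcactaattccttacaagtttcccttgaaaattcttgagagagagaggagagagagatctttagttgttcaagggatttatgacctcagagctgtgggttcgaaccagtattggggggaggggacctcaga

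Such stretches were searched on both strands for GGCGCC, a BMP-responsive Smad motif, for GTCTAGAC, the palindromic Smad motif, and for TGACGTCA and TGACG, the full and partial cyclic AMP response element, the last of which is contained in the third. GGCGCC was in 12.1% of the 13946 upstream stretches of tested genes and in 0 of the 8 genes described. GTCTAGAC was in 0.251% of all stretches and in that of *Smad7*, 127 bases before its first transcribed base. TGACGTCA was in 2.01% of all and in 0 of the 8, and TGACG was in 22.8% of all and in 3 of the 8, at -248 in *Id2*, -183 in *Id3* and -112 in *Smad7*. These matches describe letters in a window and no binding.

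In GRCm39 the GENCODE annotation places *Id1* at chr2:152566218-152579544, *Id2* at chr12:25143798-25147282, *Id3* at chr4:135870808-135873066, *Smad6* at chr9:63860341-63929793, *Smad7* at chr18:75500374-75529006, *Inhba* at chr13:16186373-16206206, *Tgfb2* at chr1:186354985-186438294 and *Fst* at chr13:114588731-114595521. All are protein-coding. Annotated genes lie on the opposite strand of *Id1*, *Id2*, *Id3*, *Inhba*, *Tgfb2* and *Fst*. Of those in the count table, the highest level in any library was 4.62 CPM by library size, for *Gm29491* at *Tgfb2*.

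Per kilobase of exon, *Id3* was the most abundant of the 8 genes in Rest control myotubes and *Smad6* the least. *Id3* was at 57.3 ± 8.82 CPM per kb (SD, n = 6), followed by *Id1* at 34.4 ± 5.31, *Fst* at 17.7 ± 3.51, *Smad7* at 9.54 ± 1.28, *Inhba* at 7.65 ± 1.56, *Id2* at 6.96 ± 0.641, *Tgfb2* at 4.24 ± 0.387 and *Smad6* at 2.56 ± 0.952 CPM per kb. *Inhba* lay within the spread of both *Smad7* and *Id2*. At EPS 3h the order differed, with *Smad7* at 27.4 ± 7.38, *Fst* at 27.4 ± 7.43 and *Inhba* at 23.7 ± 4.74 CPM per kb at the top, within each other's spread, *Id3* at 13.96 ± 1.95 beside *Tgfb2* at 13.9 ± 5.39, and *Id1* at 6.25 ± 1.93 CPM per kb.

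The comparison of EPS with Rest in control myotubes asks how transcript levels differ after EPS. Both times were set against the same Rest group, so at EPS 3h the added recovery time and EPS cannot be told apart. The *Id* genes fell, and *Smad7*, *Inhba*, *Tgfb2* and *Fst* rose. At EPS 0h, 7 of the 8 genes were called, against 38.9% of all genes tested, with 4 higher (20.5% of all genes) and 3 lower (18.4%). At EPS 3h all 8 were called, against 52.0% of all genes, with 4 higher (26.1%) and 4 lower (25.9%). The 8 genes were chosen with earlier results known, so an excess over these shares may come from the choice and was not tested. Scaling by library size alone shifted the median log2FC of all genes by -0.17 at EPS 3h, and *Fst* then had a log2FC of 0.46 (FDR 0.0982, edgeR) at that time and was not called.

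**Figure D1:**
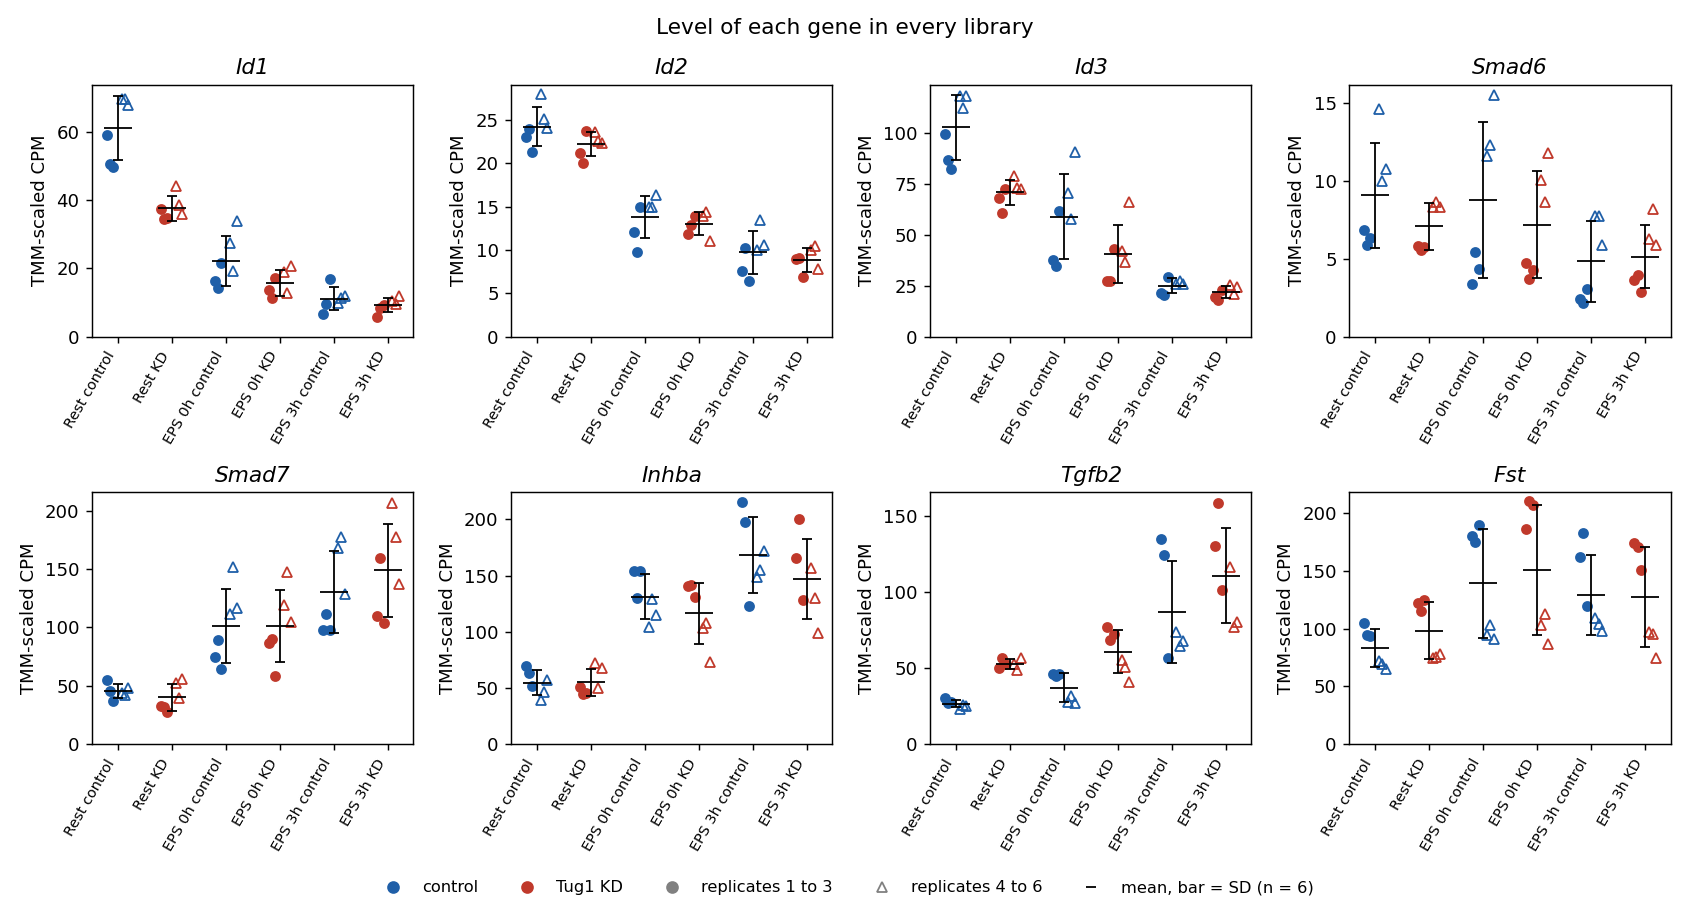
Level of each gene in every library, in TMM-scaled CPM on linear axes from 0, for the 6 groups. Circles are replicates 1 to 3 and triangles replicates 4 to 6, blue is control and red Tug1 KD, and black bars give the mean and SD of 6 libraries. The *Id* genes step down from Rest to EPS 3h, and *Smad7*, *Inhba* and *Tgfb2* step up. The sets of replicates lie apart in every group in *Smad6* and *Fst*, and in some groups in other genes, among them *Smad7* and *Tgfb2*.

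*Id1*, an inhibitor of myogenic factors and a direct BMP target, fell the most of the 8. It ranged from 49.6 to 69.8 CPM (median 63.6) in Rest control libraries, from 14.2 to 33.7 (median 20.4) at EPS 0h and from 6.73 to 17.0 (median 10.7) at EPS 3h. Every stimulated library was below every Rest library, and the ranges at EPS 0h and EPS 3h overlapped. The log2FC against Rest was -1.47 (SE 0.186, FDR 1.01e-07, edgeR) at EPS 0h and -2.46 (SE 0.195, FDR 7.96e-13, edgeR) at EPS 3h. Between EPS 0h and EPS 3h it fell further by 0.99 on the log2 scale (FDR 0.000219, edgeR), a call that was lost within replicates 1 to 3 (-0.62, FDR 0.105, edgeR).

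*Id3*, a close relative with the same role, ranged from 82.0 to 118 CPM (median 105.7) at Rest, from 34.5 to 90.8 (median 59.8) at EPS 0h and from 20.2 to 29.3 (median 25.8) at EPS 3h in control libraries. The EPS 0h libraries overlapped Rest, whereas all EPS 3h libraries were below all others. Within each set of replicates the EPS 0h libraries were also all below Rest. The log2FC against Rest was -0.80 (SE 0.181, FDR 0.000558, edgeR) at EPS 0h and -2.04 (SE 0.188, FDR 3.03e-11, edgeR) at EPS 3h. The fall between EPS 0h and EPS 3h was -1.23 (FDR 5.63e-06, edgeR).

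*Id2*, the third inhibitor of this family, ranged from 21.3 to 28.0 CPM (median 24.0) at Rest, from 9.77 to 16.4 (median 14.9) at EPS 0h and from 6.40 to 13.5 (median 10.1) at EPS 3h in control libraries. The Rest libraries stood above all stimulated ones. The log2FC was -0.81 (SE 0.129, FDR 5.21e-06, edgeR) at EPS 0h and -1.32 (SE 0.131, FDR 1.76e-10, edgeR) at EPS 3h. From EPS 0h to EPS 3h the difference was -0.51 (FDR 0.00538, edgeR), and it was not called in a fit to those groups alone (FDR 0.0688).

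The inhibitory Smads parted. *Smad7*, which blocks TGF-beta and BMP receptors alike, ranged from 37.2 to 55.2 CPM (median 44.6) at Rest, from 64.5 to 151.4 (median 100.2) at EPS 0h and from 97.7 to 177.7 (median 120.0) at EPS 3h in control libraries. All stimulated libraries were above all Rest libraries, while EPS 0h and EPS 3h overlapped. The log2FC was 1.16 (SE 0.214, FDR 5.03e-05, edgeR) at EPS 0h and 1.53 (SE 0.216, FDR 2.90e-07, edgeR) at EPS 3h. The sets of replicates differed in size, at 0.73 and 1.18 within replicates 1 to 3 and 1.497 and 1.82 within replicates 4 to 6.

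*Smad6*, which acts mainly on BMP signals, ranged from 5.90 to 14.6 CPM (median 8.42) at Rest, from 3.38 to 15.5 (median 8.50) at EPS 0h and from 2.13 to 7.74 (median 4.48) at EPS 3h in control libraries. The groups overlapped throughout. Replicates 4 to 6 had a higher mean than replicates 1 to 3 in each of them, at 13.1 and 4.38 CPM at EPS 0h. Within each of these sets, every EPS 3h library was below every Rest library. At EPS 0h the log2FC was -0.05 (SE 0.347, FDR 0.916, edgeR), made of -0.54 in replicates 1 to 3 and 0.15 in replicates 4 to 6. At EPS 3h *Smad6* was lower than at Rest, with a log2FC of -0.90 (SE 0.356, FDR 0.0336, edgeR), at -1.30 within replicates 1 to 3 and -0.73 within replicates 4 to 6. Without the filter on low counts this call was lost (FDR 0.0617, edgeR). It passed within replicates 1 to 3 (FDR 3.54e-05) and within replicates 4 to 6 (FDR 0.00191, edgeR). With the replicate number as a block it was -0.97 (FDR 6.23e-06, edgeR). From EPS 0h to EPS 3h the difference of -0.84 (FDR 0.108, edgeR) was not called, while it was called within replicates 1 to 3 (-0.76, FDR 0.0161) and within replicates 4 to 6 (-0.88, FDR 0.00243, edgeR). Which experiment a replicate number belongs to is not stated in the labels.

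Of the ligands, *Inhba*, which encodes the beta A subunit that forms activin A, ranged from 39.2 to 69.7 CPM (median 54.0) at Rest, from 104.0 to 153.7 (median 129.8) at EPS 0h and from 122.9 to 215.1 (median 163.2) at EPS 3h in control libraries. No stimulated library reached down to the Rest range. The log2FC was 1.27 (SE 0.171, FDR 3.26e-07, edgeR) at EPS 0h and 1.63 (SE 0.173, FDR 7.04e-10, edgeR) at EPS 3h. The further difference of 0.36 between EPS 0h and EPS 3h did not pass the test (95% interval 0.035 to 0.694, FDR 0.149, edgeR).

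*Tgfb2*, a TGF-beta ligand, rose late. It ranged from 23.3 to 30.4 CPM (median 26.4) at Rest, from 27.2 to 46.3 (median 38.1) at EPS 0h and from 56.8 to 135.2 (median 70.7) at EPS 3h in control libraries. Rest and EPS 0h overlapped, and every EPS 3h library was above them. Within each set of replicates, the EPS 0h libraries were all above Rest. The log2FC was 0.49 (SE 0.193, FDR 0.0435, edgeR) at EPS 0h, at 0.68 within replicates 1 to 3 and 0.22 within replicates 4 to 6, and this call was lost with limma-voom (FDR 0.0677), with library size only (FDR 0.0904) and without the filter (FDR 0.0761). The EPS 0h difference passed with the replicate number as a block (0.46, FDR 0.00700) and not within replicates 4 to 6 (FDR 0.256, edgeR). At EPS 3h the fit without a block gave 1.71 (SE 0.196, FDR 4.13e-09, edgeR), and 1.23 (FDR 1.32e-05, edgeR) against EPS 0h.

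*Fst*, which encodes the activin antagonist follistatin, ranged from 64.8 to 104.8 CPM (median 82.9) at Rest, from 91.3 to 190.3 (median 139.2) at EPS 0h and from 97.9 to 183.2 (median 114.3) at EPS 3h in control libraries. The groups overlapped, and replicates 1 to 3 were above replicates 4 to 6, at means of 182 and 96.5 CPM at EPS 0h. Within each of these sets, every stimulated library was above every Rest library. The log2FC was 0.74 (SE 0.241, FDR 0.0136, edgeR) at EPS 0h and 0.64 (SE 0.241, FDR 0.0258, edgeR) at EPS 3h. Within replicates 1 to 3 it was 0.89 and 0.68, and within replicates 4 to 6 it was 0.49 and 0.59. The call at EPS 3h was lost without the filter (0.54, FDR 0.0994, edgeR), as with library size only. With the replicate number as a block the FDR was 2.21e-07 at EPS 0h and 5.99e-07 at EPS 3h (edgeR). Both sets of replicates alone also passed at both times.

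In control myotubes 4 of the 8 genes were called from EPS 0h to EPS 3h, against 16.6% of all genes. The 3 *Id* genes were lower (6.88% of all genes) and *Tgfb2* was higher (9.67%). No EPS 3h library overlapped Rest for *Id1*, *Id2*, *Id3*, *Smad7*, *Inhba* and *Tgfb2*, as in 28.9% of all genes, and at EPS 0h this held for *Id1*, *Id2*, *Smad7* and *Inhba*, as in 22.0% of all genes.

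**Figure D2:**
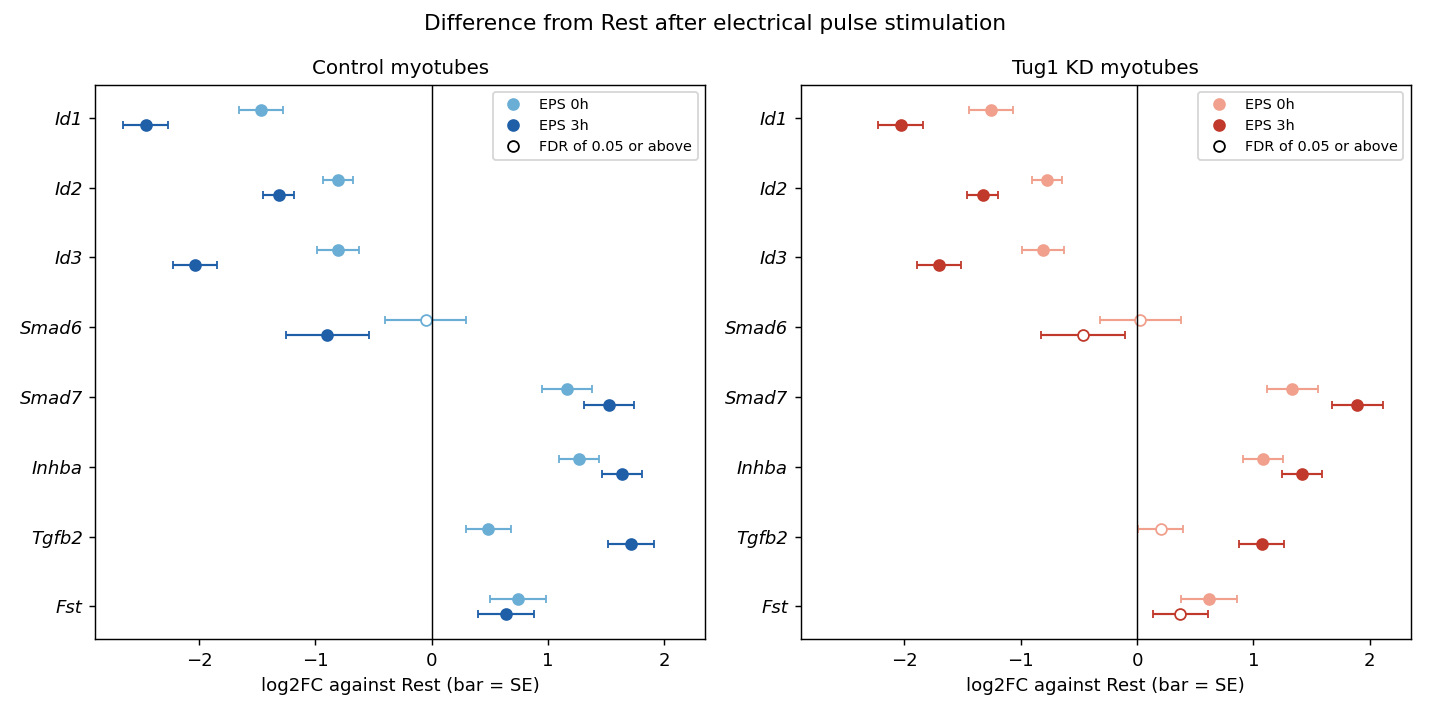
Difference from Rest at EPS 0h (light) and EPS 3h (dark) as log2FC with its SE, in control (left) and Tug1 KD myotubes (right), 6 libraries per group. Open points have an FDR of 0.05 or above. *Id1* lies furthest to the left in both panels, at -2.46 and -2.03 at EPS 3h, and *Tgfb2* is at 1.71 in control and 1.07 in Tug1 KD myotubes.

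In Tug1 KD myotubes 6 of the 8 genes were called at EPS 0h (45.6% of all genes), with *Smad7*, *Inhba* and *Fst* higher (24.4%) and the 3 *Id* genes lower (21.2%). At EPS 3h 6 were again called (52.1%), with *Smad7*, *Inhba* and *Tgfb2* higher (26.2%) and the 3 *Id* genes lower (25.9%). The *Id1* libraries ranged from 34.5 to 44.1 CPM (median 36.7) at Rest, from 11.3 to 20.6 (median 15.4) at EPS 0h and from 5.84 to 11.8 (median 9.40) at EPS 3h, with Rest above all others, and the log2FC was -1.25 (SE 0.187, FDR 1.40e-06, edgeR) and -2.03 (SE 0.194, FDR 5.82e-11, edgeR). *Id3* was at 70.7 ± 6.17 CPM (SD, n = 6) at Rest, 40.3 ± 14.3 at EPS 0h and 21.7 ± 2.97 at EPS 3h, with log2FC values of -0.81 and -1.70. *Id2* was at 22.3 ± 1.41, 13.0 ± 1.32 and 8.86 ± 1.37 CPM, with log2FC values of -0.77 and -1.33.

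*Smad7* ranged from 27.5 to 56.0 CPM (median 36.02) at Rest, from 58.6 to 147.8 (median 97.3) at EPS 0h and from 103.7 to 206.7 (median 147.9) at EPS 3h in Tug1 KD libraries. Stimulated libraries lay above all Rest libraries, and the log2FC was 1.34 (SE 0.216, FDR 4.92e-06, edgeR) and 1.89 (SE 0.219, FDR 4.24e-09, edgeR). *Inhba* ranged from 44.3 to 72.4 CPM (median 50.1) at Rest, from 72.9 to 142 (median 119.2) at EPS 0h and from 99.2 to 200.6 (median 143.7) at EPS 3h in these libraries. Rest again stood below all stimulated libraries, if only by a small gap at EPS 0h, and the log2FC was 1.08 (FDR 3.50e-06, edgeR) and 1.42 (FDR 1.16e-08, edgeR). At EPS 0h it was 1.58 within replicates 1 to 3 and 0.58 within replicates 4 to 6. For *Tgfb2* the value was 0.20 (FDR 0.398, edgeR) at EPS 0h and 1.07 (SE 0.192, FDR 1.51e-05, edgeR) at EPS 3h.

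*Fst* was called at EPS 0h at 0.62 (FDR 0.0335, edgeR), a call lost with limma-voom (FDR 0.0517), with library size only (FDR 0.0634) and without the filter (FDR 0.121). With the replicate number as a block *Fst* had 0.57 (FDR 3.68e-06, edgeR) at EPS 0h. Without the block it had 0.37 (95% interval -0.097 to 0.843, FDR 0.195, edgeR) at EPS 3h. *Smad6* had 0.03 (FDR 0.955) and -0.46 (FDR 0.288, edgeR). Within replicates 1 to 3 both passed at EPS 3h, *Fst* at 0.48 (FDR 0.00336) and *Smad6* at -0.70 (FDR 0.00603, edgeR), and within replicates 4 to 6 neither did, at 0.22 (FDR 0.103) and -0.31 (FDR 0.172, edgeR). From EPS 0h to EPS 3h in Tug1 KD myotubes 4 genes were called (15.7% of all genes), *Tgfb2* higher at 0.87 (8.59%) and *Id1*, *Id2* and *Id3* lower at -0.78, -0.55 and -0.89 (7.13%). With the replicate number as a block, *Smad7* (0.58, FDR 0.00108, edgeR) and *Smad6* (-0.45, FDR 0.0490, edgeR) passed as well, from an FDR of 0.0695 and 0.420 without it.

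The comparison of Tug1 KD with control myotubes at Rest asks how transcript levels differ with the knockdown LNA without stimulation. *Tgfb2* was higher and *Id1* lower, and these were the 2 of 8 genes called, against 10.0% of all genes tested (5.54% higher and 4.47% lower). *Tgfb2* ranged from 48.8 to 56.9 CPM (median 52.6) in Tug1 KD libraries, all above the highest Rest control library at 30.4 CPM. The log2FC was 1.00 (SE 0.194, FDR 0.000466, edgeR), at 0.90 within replicates 1 to 3 and 1.09 within replicates 4 to 6, and it was called in all 9 alternative fits (FDR 1.47e-06 to 0.0200, DESeq2, limma or edgeR).

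*Id1* in Tug1 KD libraries at Rest lay below all control libraries, with a log2FC of -0.70 (SE 0.182, FDR 0.00832, edgeR), which was not called without the filter (FDR 0.0613). Within replicates 1 to 3 the difference was -0.58 and not called (FDR 0.154, edgeR), and within replicates 4 to 6 it was -0.81 (FDR 0.00240, edgeR). *Id3* ranged from 60.5 to 79.0 CPM (median 72.3) in Tug1 KD libraries, again all below control. Its log2FC of -0.54 (SE 0.180, FDR 0.05005, edgeR) fell just outside the threshold, and it passed in 7 of the 9 alternative fits. Libraries without overlap, as seen in *Tgfb2*, *Id1* and *Id3*, occurred in 8.07% of all genes in this comparison.

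The other 5 genes did not pass at Rest. The log2FC was -0.12 for *Id2* (95% interval -0.371 to 0.126), -0.36 for *Smad6* (-1.043 to 0.325), -0.18 for *Smad7* (-0.594 to 0.242), 0.01 for *Inhba* (-0.318 to 0.347) and 0.24 for *Fst* (-0.230 to 0.710). For *Smad7* and *Inhba* the sign differed between the sets of replicates.

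At EPS 0h, 2 of the 8 genes were called between Tug1 KD and control, against 14.3% of all genes, *Tgfb2* higher (8.25%) and *Id3* lower (6.07%). *Tgfb2* ranged from 41.2 to 76.9 CPM (median 61.9) in Tug1 KD libraries, which overlapped control, and its log2FC was 0.71 (SE 0.192, FDR 0.00921, edgeR). Within each set of replicates its Tug1 KD libraries were all above control. *Id3* ranged from 27.3 to 66.0 CPM (median 39.2) in Tug1 KD libraries, with a log2FC of -0.54 (SE 0.181, FDR 0.0382, edgeR), not called in a fit to these groups alone (FDR 0.191) or without the filter (FDR 0.158). Neither passed within replicates 1 to 3, where the values were 0.69 (FDR 0.0703) and -0.43 (FDR 0.250, edgeR). *Id1* had -0.49 (SE 0.187, FDR 0.0759, edgeR) and passed with the replicate number as a block (-0.47, FDR 0.0130, edgeR).

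At EPS 3h, 0 of the 8 genes were called by edgeR between Tug1 KD and control, against 11.5% of all genes, and none had an unadjusted p under 0.05 or was called by DESeq2 or limma-voom. *Tgfb2* ranged from 77.3 to 158.8 CPM (median 109.1) in Tug1 KD libraries and overlapped control, with a log2FC of 0.35 (95% interval -0.021 to 0.722, FDR 0.269, edgeR). *Id1* had -0.27 (-0.653 to 0.108) and *Id3* -0.20 (-0.566 to 0.160).

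The difference between these effects was tested as an interaction. At EPS 0h, 0% of all genes and at EPS 3h 0.00715% of all genes passed by edgeR, and none of the 8 did. The response of *Tgfb2* to EPS at 3h was smaller in Tug1 KD than in control myotubes (interaction -0.64 on the log2 scale, SE 0.270, unadjusted p 0.0224, FDR 0.9999, edgeR), which did not pass after adjustment and was the lone unadjusted p under 0.05 among the 8 genes at either time. For *Id1* the interaction at EPS 3h was 0.43 (95% interval -0.092 to 0.951). The EPS comparisons within control and the knockdown comparison at Rest share the Rest control libraries.

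**Figure D3:**
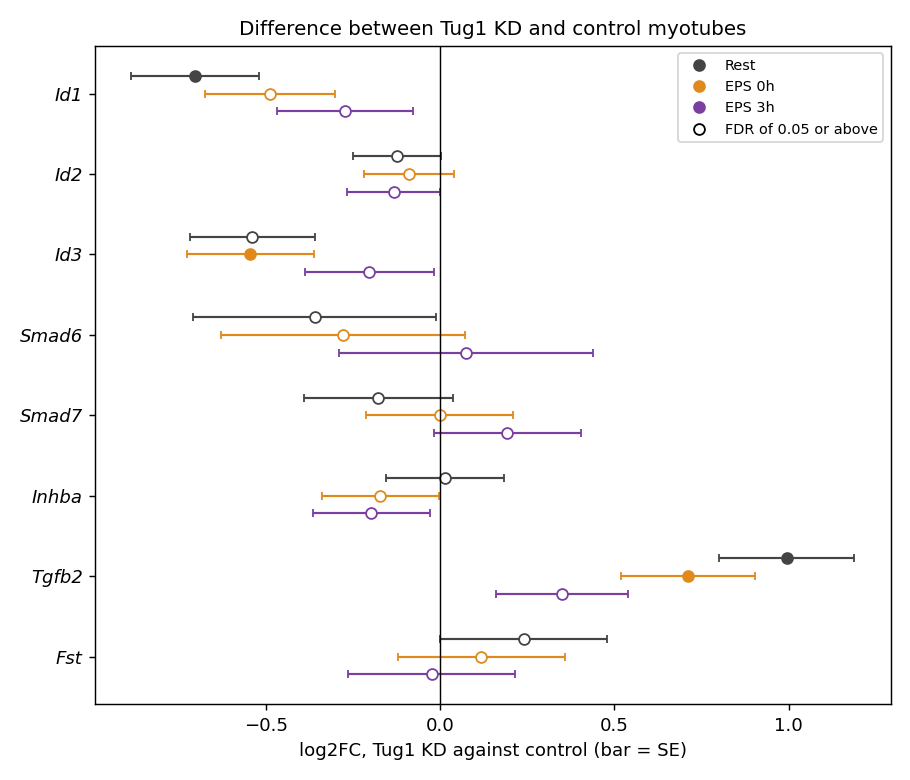
Log2FC of Tug1 KD over control myotubes, with its SE, for Rest, EPS 0h and EPS 3h, 6 libraries per group. Open points have an FDR of 0.05 or above. *Tgfb2* is at 1.00, 0.71 and 0.35 at the 3 times, and *Id1* at -0.70, -0.49 and -0.27.

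The most alike patterns were sought as the highest Pearson correlation of log2 CPM over all 36 libraries among 10622 genes with a mean of at least 5 CPM. For *Id1* these were *Id3* (r = 0.965) and *Mmp11* (r = 0.965), and for *Id3* they were *Id1* and *Mmp11* (r = 0.957). Within groups, after the group means were taken out, *Id1* and *Id3* still correlated at 0.823, whereas *Id1* and *Id2* went from 0.896 to 0.193. *Id2* was most like *Pmp22* (0.975) and *Cyp1b1* (0.959), and *Tgfb2* most like *Cyb5r4* (0.965) and *Riok3* (0.953).

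*Smad7* was most like *Ubn1* (0.955) and *Irs2* (0.951), *Inhba* most like *Zbtb11* (0.976) and *Ppp4r2* (0.975), *Fst* most like *Tspan13* (0.948) and *Hsp90b1* (0.941), and *Smad6* most like *Ccdc102a* (0.925) and *Pdgfrb* (0.922). *Tspan13* and *Hsp90b1* were called in no comparison, at 0.31 (FDR 0.280) and 0.40 (FDR 0.1085, edgeR) at EPS 0h in control myotubes. *Ccdc102a* and *Pdgfrb* were called lower at EPS 3h there, at -0.72 (FDR 0.0269) and -0.80 (FDR 0.0193, edgeR). Within groups *Smad6* and *Fst* were opposed, at -0.884. At EPS 0h in control, *Fst* had means of 182 CPM in replicates 1 to 3 and 96.5 in replicates 4 to 6. *Smad6* had 4.38 and 13.1 CPM. The part of this split in the correlations was not tested. The points share libraries, groups and replicate sets, so these correlations are descriptions.

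Around the 8 genes, 91 other ligands, receptors, Smads, modulators, antagonists and targets of the same pathways were listed, of which 70 were tested. This list was also made with earlier results known. In control myotubes 34 of the 70 were called at EPS 0h (20 higher and 14 lower) and 44 at EPS 3h (24 higher and 20 lower). These are 48.6% and 62.9% of the 70, against 38.9% and 52.0% of all genes. The median log2FC of the 70 at EPS 3h was -0.02, as was that of all genes. By role at EPS 3h, 10 of 12 ligands were called (4 higher and 6 lower), 7 of 14 receptors or co-receptors (5 and 2), 4 of 6 Smad transducers (3 and 1), 9 of 10 intracellular modulators (6 and 3), 5 of 14 extracellular antagonists or binding proteins (1 and 4) and 9 of 14 targets (5 and 4). The counts and shares of the 70, and the counts of ligands and modulators, hold *Bmp6*, *Bmp7* and *Bambi*. These genes passed the filter on low counts only through stimulated libraries and so had to differ, and their values are given as a description.

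The BMP ligand *Bmp7* had 0 counts in all Rest libraries, between 6 and 30 counts per control library at EPS 0h and between 41 and 110 at EPS 3h. Its mean CPM in these 2 control groups was 5.65-fold and 30.2-fold that of a floor of 3 counts per library at Rest. *Bmp6*, another BMP ligand, was at 0.377 ± 0.160 CPM (SD, n = 6) at Rest, 3.29 ± 0.774 at EPS 0h and 7.53 ± 1.77 at EPS 3h. *Bmp6* overlaps the abundant *Txndc5* on the opposite strand.

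Among the genes listed as modulators, *Bambi*, a decoy receptor that lacks the kinase, was at 0.532 ± 0.209 CPM (SD, n = 6) at Rest and 3.69 ± 0.722 CPM at EPS 3h. *Trim33*, a ubiquitin ligase that acts on Smad4, rose from 40.2 ± 4.41 to 97.8 ± 5.27 CPM at EPS 0h (1.28, FDR 6.72e-09, edgeR). Of the genes that fell, *Gdf5*, a BMP family ligand, had a log2FC of -1.12 directly after EPS and -2.30 at EPS 3h, *Inha*, the inhibin alpha subunit, -0.88 and -1.29, *Eng*, a TGF-beta co-receptor, -0.84 at EPS 0h, and *Atoh8*, a BMP target, -1.66 at EPS 3h.

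**Figure D4:**
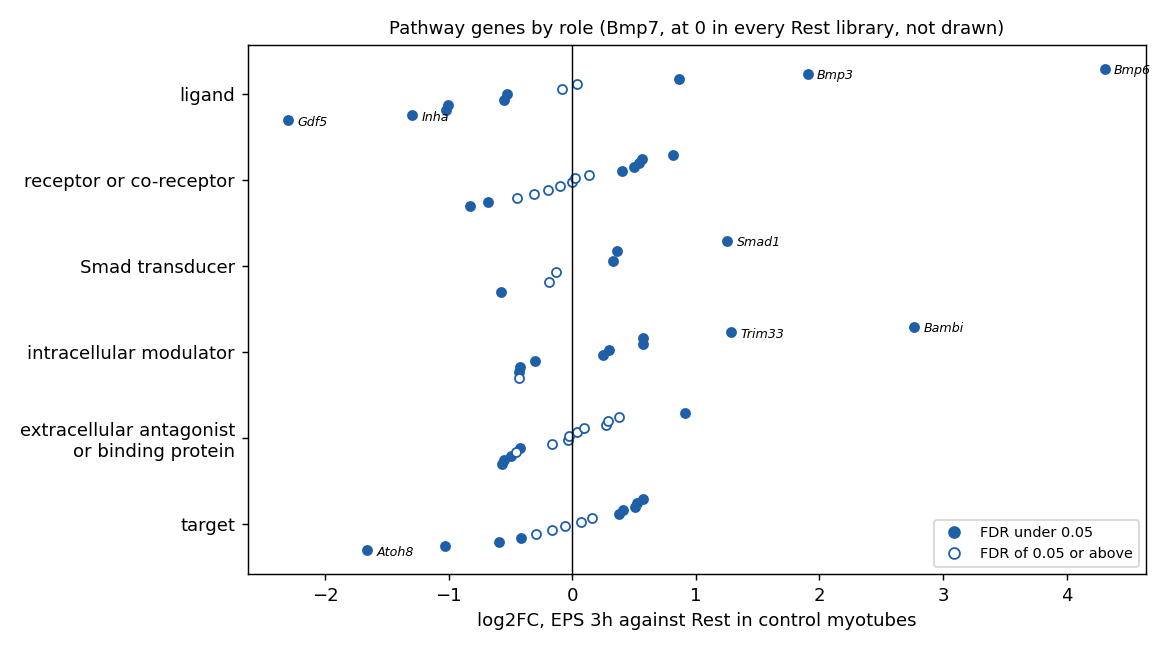
Log2FC at EPS 3h against Rest in control myotubes for the tested pathway genes, in rows by role, 1 point per gene. Filled points have an FDR under 0.05. *Bmp6*, under 1 CPM in all Rest libraries, is furthest right at 4.31, *Gdf5* is furthest left at -2.30, and *Bmp7*, at 0 in all Rest libraries, is not drawn.

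After the knockdown at Rest 8 of the 70 were called, 6 higher and 2 lower, which is 11.4% of them against 10.0% of all genes. *Bmpr2*, the type II BMP receptor, rose from 59.8 ± 5.44 to 98.4 ± 17.2 CPM (SD, n = 6, log2FC 0.72, SE 0.171, FDR 0.00396, edgeR), and remained higher at EPS 0h (0.79) and EPS 3h (0.66). *Fstl3*, a follistatin-like antagonist of activin, rose from 14.5 ± 0.957 to 23.7 ± 3.51 CPM (0.71, SE 0.105, FDR 8.67e-06, edgeR), with 0.64 and 0.62 after EPS. *Ltbp1*, which holds latent TGF-beta in the matrix, had 0.44, 0.70 and 0.61, called at each time.

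The 2 that fell at Rest were *Hey1*, a target of BMP and Notch signals, at -0.49 (SE 0.145, FDR 0.0223, edgeR), and *Acvr1b*, a type I activin receptor, at -0.40 (SE 0.113, FDR 0.0174, edgeR). At EPS 0h and EPS 3h 7 of the 70 were called each, or 10% of them against 14.3% and 11.5% of all genes. With the replicate number as a block these became 16 and 13, and all genes called went from 2005 to 3406 and from 1608 to 2878.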

How the data were processed

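Per the labels and the study's methods, the authors made poly-A libraries of C2C12 myotubes, checked reads with FastQC 0.11.7, trimmed them with fastp 0.14.1, used STAR 2.5 for alignment to GRCm39, and counted reads on each gene. The values deposited by the authors are raw counts without normalization. The counting mode and strand setting are not given in the sources used here. The 36 per-library files hold the same values as the table. Genes without a name (1492) held 0.0327% of counts. Every pair of libraries within a group differed by more than counting error (chi-square per degree of freedom at least 4.32).

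Genes with at least 1 CPM in at least 12 of 36 libraries were kept. edgeR 4.0.16 in R 4.3.3 (TMM, robust quasi-likelihood fit to all 6 groups) gave 11 comparisons, with SE taken as the size of the log2FC over the square root of F and 95% intervals from the SE. The script was tested on simulated data. The 9 alternatives were DESeq2 1.42.0, limma-voom (limma 3.58.1), library size only, no filter, a replicate block, a replicate set term, replicates 1 to 3 or 4 to 6 alone, and only the groups compared. The genes, lists and sets of replicates were chosen with earlier results of these data known. Genes named beyond the 8 are *Tug1*, the 2 most alike of each, and up to 3 pathway genes with the largest rise and fall past the threshold in control myotubes at EPS 0h and at EPS 3h and after knockdown at Rest. Marker and overlapping genes are named as checks, and the pathway genes of the closing observations were chosen after their values were seen.

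The main fit held group means only, so its SE and FDR values are unpaired. The replicate number entered only the replicate block. Same-numbered libraries were counted as pairs where their deviations from the group means correlated above 0.1 in all 6 pairs. This held for Tug1 KD against control at EPS 0h (r 0.570 to 0.714) and EPS 3h (0.207 to 0.716), EPS 0h (0.232 to 0.472) and EPS 3h (0.122 to 0.501) against Rest in control, and EPS 0h against Rest (0.156 to 0.376) and EPS 3h against EPS 0h (0.188 to 0.754) in Tug1 KD myotubes. In that order, 5, 4, 2, 4, 5 and 2 of 6 libraries correlated best with their own number. Only group means were taken out, so a shift between the sets of replicates can also give such correlations. The rule therefore does not show that wells were matched.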

Additional observations from a re-analysis of the deposited data

How the results depend on the processing

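Of the 39 called differences of the 8 genes, no sign changed in any of the 9 alternatives. Calls lost and gained numbered 0 and 2 with DESeq2, 2 and 1 with limma-voom, 3 and 2 with library size only, 6 and 0 without the filter, 2 and 1 with only the groups compared, 4 and 5 for replicates 1 to 3, 1 and 4 for replicates 4 to 6, 0 and 8 with the replicate block and 0 and 7 with the replicate set term. Causes were not tested. The count called after knockdown at Rest was 1 in place of 2 without the filter and in replicates 1 to 3. At EPS 0h it was 1 without the filter and with only the groups compared, and 0 in replicates 1 to 3. The replicate block raised the pathway genes called after knockdown from 8 to 14 at Rest, from 7 to 16 at EPS 0h and from 7 to 13 at EPS 3h, and for EPS 3h against EPS 0h from 14 to 24 in control and from 15 to 23 in Tug1 KD myotubes. The set term gave 22 for EPS 3h against EPS 0h in control and 14 for knockdown at EPS 0h, and replicates 4 to 6 gave 11 for the latter. The numbers did not pair the libraries for knockdown at Rest (5 of 6 pairs above 0.1, 3 best with their own number), for EPS 3h against EPS 0h in control (5 and 2) or for EPS 3h against Rest in Tug1 KD myotubes (5 and 2). Where the rule for pairs was met, the block ended no call. For the last, 8 rather than 6 of the 8 genes were called with the block, the set term and replicates 1 to 3, *Fst* and *Smad6* added, and for the one before 6 rather than 4 with the block, *Smad6* and *Smad7* added.

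All genes called after knockdown at Rest went from 1401 to 2410 (block), 2232 (set term), 866 (replicates 1 to 3) and 2256 (replicates 4 to 6). At EPS 0h they went from 2005 to 3406, 3179 and 940 under the first 3, and 1295 without the filter, and at EPS 3h from 1608 to 2878, 2611, 852 and 925, and 831 with only the groups compared. Without the filter 11468 in place of 7277 genes were called at EPS 3h in control, 12730 in place of 7293 in Tug1 KD, and 3854 in place of 2200 for EPS 3h against EPS 0h in Tug1 KD myotubes, which became 3366 with the block and 1290 in replicates 1 to 3. In control myotubes the latter comparison went from 2317 to 3531 with the block. EPS 0h in Tug1 KD myotubes went from 6388 to 3980 in replicates 4 to 6. The interaction counts of 0 and 1 became 1 and 8 with the block, and the first became 1 with the set term.

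Signs changed in uncalled differences only. In replicates 1 to 3 these were *Inhba* after knockdown at Rest (-0.39), *Id2* after knockdown at EPS 0h (0.0895) and EPS 3h (0.0444), *Fst* after knockdown at EPS 3h (0.10), *Smad6* at EPS 0h in Tug1 KD (-0.42), and the interactions of *Inhba* (0.33 and 0.28) and of *Id2* at EPS 3h (0.12). In replicates 4 to 6 they were *Smad7* after knockdown at Rest (0.14) and EPS 0h (-0.0286), *Smad6* after knockdown at EPS 3h (-0.0675) and in control at EPS 0h (0.15), *Fst* from EPS 0h to EPS 3h in control (0.10), *Tgfb2* at EPS 0h in Tug1 KD (-0.10), and the interactions of *Id2* (-0.0602), *Id3* (0.0336) and *Smad7* (-0.17) at EPS 0h and *Smad7* (-0.0071) at EPS 3h. *Smad6* at EPS 0h in Tug1 KD was -0.065 with limma-voom, -0.0599 with library size only, -0.0298 without the filter, -0.0689 with the block and -0.0727 with the set term. *Smad7* after knockdown at EPS 0h was -0.0111 with DESeq2, -0.0375 with library size only, -0.0161 without the filter and -0.0035 with only the groups compared. *Inhba* after knockdown at Rest was -0.0085 with library size only. The interaction of *Id2* was -0.0114 at EPS 0h without the filter, and 0.0006 with DESeq2 and 0.0088 with limma-voom at EPS 3h, and that of *Id3* at EPS 0h was 0.0012 with limma-voom. Scaling by library size only shifted the median of all genes by -0.17 at EPS 3h in control and -0.16 in Tug1 KD myotubes. *Smad6* reached the lowest count of the genes described, with 35 to 341 counts per library. Whether depth limited its calls was not tested.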

Other observations

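Other pathway genes, chosen after their values were seen, moved with EPS in control myotubes. *Smad1*, a transducer of BMP signals, rose from 75.2 ± 9.14 CPM (SD, n = 6) at Rest to 113.6 ± 8.84 at EPS 0h and then to 179.6 ± 28.9 at EPS 3h, with a log2FC of 0.59 (FDR 0.000149, edgeR) and 1.26 (FDR 8.11e-11, edgeR). *Nog*, which encodes the BMP antagonist noggin, was higher at EPS 0h (1.02, FDR 2.33e-06, edgeR), and its log2FC at EPS 3h was 0.29 (FDR 0.117, edgeR). *Tgfbr1*, the type I TGF-beta receptor, rose by 0.91 (FDR 3.30e-06, edgeR) and 0.82 (FDR 7.57e-06, edgeR).

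*Tgfb3*, a TGF-beta ligand like *Tgfb2*, fell while *Tgfb2* rose. In controls it was at 136.2 ± 16.6 CPM (SD, n = 6) at Rest, 99.95 ± 4.09 at EPS 0h and 66.9 ± 7.51 at EPS 3h, with every stimulated library below every Rest library and a log2FC of -0.45 (FDR 0.000149, edgeR) and -1.02 (FDR 1.18e-11, edgeR). After knockdown at Rest both ligands were higher, *Tgfb3* by 0.42 (FDR 0.00133, edgeR). The transcription factors *Snai1* and *Snai2*, both listed as targets, parted at EPS 3h, at -1.03 (FDR 0.000390, edgeR) and 0.52 (FDR 0.00385, edgeR).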
